A study of Homo sapiens with 9 samples.

Results

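Chromosome 19 carries the largest collection of C2H2 zinc finger genes in the human genome. The genes described here are its expressed ZNF genes, and they were chosen by 4 criteria: annotation as protein-coding, position on chromosome 19, a symbol made of ZNF and a number only, and a mean of at least 1 FPKM over all libraries. FPKM, a fragment count divided by the length of the gene and the size of the library, is the unit of the deposited table. Of the 240 ZNF genes of the chromosome, 88 met the threshold, out of 58735 genes in the table. Another 62 had a mean between 0.1 and 1 FPKM and 90 had less. The level over all libraries chose the members, so that level is a description; differences between groups were not used in the choice.

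RNA-seq was carried out on HCT116, an established human colorectal carcinoma line, in 9 libraries. There were 3 libraries of wild-type cells (WT, genotype A20-WT), 3 of A20 knockout cells (KO, genotype A20-KO), and 3 of knockout cells in which A20 was expressed again (OE, genotype A20-OE in the labels and A20-KO-rescue in the title of the series). A20, the product of TNFAIP3, is a ubiquitin-editing enzyme that restrains NF-kB signaling. The knockout cells carry a lentiviral CRISPR vector, the Methods name a CMV-driven plasmid as the A20 expression vector, and the sources used here do not say whether each line is 1 clone or a pool. The study describes its experiments as done in triplicate with 3 samples in each group, and does not say whether the libraries of a group came from separate cultures, so p-values measure the spread between these libraries, which may be technical.

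C2H2 zinc finger proteins read DNA with tandem repeats of a finger, each held together by a zinc ion between a pair of cysteines and a pair of histidines. Most of those encoded on chromosome 19 also carry a KRAB box, which recruits the co-repressor TRIM28 and through it the histone methyltransferase SETDB1. They are best known as repressors of transposable elements. The genes arose by repeated tandem duplication, so they lie in clusters of close relatives.

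Members differed in sequence composition. A pattern for the KRAB box was found in 62 of the 88 predicted proteins and the median protein held 11.5 matches to the finger pattern, with a range from 0 to 26. GC content of the longest transcript ran from 34.4% in ZNF100 to 71.1% in ZNF865 with a median of 44.5%. No member lay between 51.6% and 57.8%, and 70 members were below this gap and 18 above it. The KRAB pattern was found in 61 of the 70 and in 1 of the 18. The coding sequence of a single finger and the linker after it shows this difference. The next 4 lines give such a repeat from GC-poor members, ZNF100 and ZNF607, and from GC-rich ones, ZNF358 and ZNF865. Each was read 5′ to 3′ from a GENCODE 29 transcript, and capitals mark the codons of the cysteine pair and the histidine pair.
ZNF100: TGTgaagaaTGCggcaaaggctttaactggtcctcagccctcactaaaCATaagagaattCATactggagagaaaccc
ZNF607: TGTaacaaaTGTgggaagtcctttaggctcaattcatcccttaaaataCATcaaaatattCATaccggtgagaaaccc
ZNF358: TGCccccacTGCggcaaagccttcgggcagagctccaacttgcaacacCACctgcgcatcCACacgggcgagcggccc
ZNF865: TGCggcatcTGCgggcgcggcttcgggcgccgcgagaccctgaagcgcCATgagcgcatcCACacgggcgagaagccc
All 4 repeats are 78 bases long and keep the same spacing of the capitals. Their GC content is 44.9%, 37.2%, 67.9% and 73.1%, in the order printed.

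The 240 ZNF genes fell into 10 clusters of at least 5 genes with gaps of at most 500 kb, numbered 1 to 10 along the chromosome, and 80 members were in a cluster. Cluster 10, at 57.2 to 58.5 Mb of GRCh38, held the most members (19 of 41 genes), followed by cluster 8 at 51.6 to 53.6 Mb (15 of 39). Cluster 4, at 19.7 to 24.1 Mb beside the centromere, was mostly silent, with 7 members among 37 genes. Cluster 9, at 55.5 to 56.7 Mb, held 9 members of 16 genes, none with the KRAB pattern and with a median GC content of 64.9%.

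Promoter sequences, taken from RefSeq on GRCh38.p14 as 250 bases before to 50 after each gene start, matched 77 of the 88 members. The other 11 were ZNF28, ZNF114, ZNF211, ZNF473, ZNF480, ZNF524, ZNF552, ZNF559, ZNF600, ZNF738 and ZNF888. The next 4 lines give members of cluster 4, the cluster with the largest share of members lower in KO and OE, from 100 bases before the start. They show how alike neighbouring promoters are. Capitals mark CCAAT.
ZNF430: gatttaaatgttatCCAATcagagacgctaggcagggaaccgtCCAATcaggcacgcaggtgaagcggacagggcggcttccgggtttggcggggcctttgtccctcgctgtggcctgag
ZNF714: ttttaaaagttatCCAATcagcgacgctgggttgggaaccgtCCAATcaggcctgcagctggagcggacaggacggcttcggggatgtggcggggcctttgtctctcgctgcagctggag
ZNF431: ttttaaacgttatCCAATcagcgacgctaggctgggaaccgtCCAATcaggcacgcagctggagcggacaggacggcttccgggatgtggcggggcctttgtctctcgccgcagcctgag
ZNF100: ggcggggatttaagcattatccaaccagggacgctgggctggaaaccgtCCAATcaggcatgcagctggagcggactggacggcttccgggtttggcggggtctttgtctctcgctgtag
These 120-base stretches lie at chr19:21020557-21020676, chr19:21082103-21082222 and chr19:21141940-21142059 on the plus strand and at chr19:21767560-21767679 on the minus strand. CCAAT, searched on both strands, was in the promoters of all 6 cluster 4 members matched and of all 29 cluster 4 ZNF genes matched, against 35.7% of all 27305 promoters in the table. It was also in 5 of 5 ZNF promoters of cluster 1 and in 22 of 24 of cluster 3.

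The next 4 lines give members of cluster 10 that were lower in KO, from 120 bases before the start. Capitals mark ACTTCCGG and a second shared stretch, which reads ACT, 1 base of any kind, CAT, 3 bases of any kind, CCA, 1 base of any kind, and A. The letters of the second stretch were chosen after these sequences were viewed.
ZNF551: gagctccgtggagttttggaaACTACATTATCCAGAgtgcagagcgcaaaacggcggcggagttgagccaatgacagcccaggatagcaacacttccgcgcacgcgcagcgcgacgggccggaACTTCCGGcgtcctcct
ZNF134: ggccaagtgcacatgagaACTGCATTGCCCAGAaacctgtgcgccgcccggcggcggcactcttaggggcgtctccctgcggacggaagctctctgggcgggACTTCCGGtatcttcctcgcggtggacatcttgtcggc
ZNF776: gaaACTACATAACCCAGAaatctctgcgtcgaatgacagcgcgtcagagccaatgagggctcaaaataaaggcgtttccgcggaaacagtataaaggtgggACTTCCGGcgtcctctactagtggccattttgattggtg
ZNF416: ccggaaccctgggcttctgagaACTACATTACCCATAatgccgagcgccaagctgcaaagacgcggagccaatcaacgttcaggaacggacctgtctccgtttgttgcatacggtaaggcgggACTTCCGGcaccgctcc
The stretches, 140 bases each, lie at chr19:57681857-57681996, chr19:57614122-57614261 and chr19:57746695-57746834 on the plus strand and at chr19:57578892-57579031 on the minus strand. ACTTCCGG, on either strand, was in 10 of the 17 cluster 10 members matched (58.8%), against 4.44% of all promoters and 9.58% of those of expressed protein-coding genes. The second stretch, on either strand, was in 7 of the 17 (41.2%), against 0.439% of all promoters, and CCAAT was in 13 of the 17. Neither ACTTCCGG nor the second stretch was limited to cluster 10. ACTTCCGG was in 5 of 19 ZNF promoters of cluster 7, 3 of 14 of cluster 9 and 4 of 22 of cluster 6. It was also in 5 of 32 of cluster 8, 1 of 4 of cluster 5 and 1 of 24 of cluster 3. The second stretch was in 9 of 22 ZNF promoters of cluster 6, 5 of 19 of cluster 7, 1 of 4 of cluster 5 and 1 of 32 of cluster 8. The ZNF promoters of the remaining clusters had no match. Each motif was counted on its own, whether or not it overlapped another. Among the cluster 10 members matched, those with ACTTCCGG were lower in KO in 4 of 10 cases and those without it in 2 of 7. With the second stretch the counts were 5 of 7 and 1 of 10. The 4 members printed, viewed before its letters were chosen, are among the 7 and are all lower in KO. They make up 4 of the 5 and enter the share of 41.2%, so the split and that share are descriptions and support nothing. Of all genes tested 11% were lower in KO against WT.

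Exons of 26 members overlap a gene on the opposite strand and those of 23 a gene on the same strand. The strand setting of the counting is not stated, so reads of such pairs cannot be told apart.

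Between 23406222 and 24963691 reads per library were recovered from the FPKM and the gene lengths, and no member had fewer than 26 reads in any library. TNFAIP3 mRNA, which checks the labels, was 0.869, 0.8002 and 0.736 FPKM in WT, 1.93, 2.16 and 1.04 in KO, and 58.7, 66.5 and 56.5 in OE. The libraries labelled KO thus held more of this mRNA, not less (log2 fold change 0.95, adjusted p = 0.018 by limma), and every direction between WT and these libraries rests on the label. Of 8 markers of colon epithelium 6 were above 1 FPKM, with CDX1 and VIL1 at or near 0. Their summed FPKM was 1092 to 1472 in WT, 1696 to 2241 in the libraries labelled KO and 1687 to 2231 in OE. KRT8, KRT18 and KRT19 made up most of this sum and, like CDH1, had their lowest means in WT. EPCAM went the other way, with means of 130 FPKM in WT, 117 in the libraries labelled KO and 105 in OE. Means of CDX2 were 5.73, 5.56 and 5.88 FPKM in the same order. The part of these differences in the results below was not tested. Markers of leukocytes (4 genes) and of endothelium (3 genes) had means of at most 0.199 and 0.139 FPKM, with PTPRC and CDH5 at or near 0. Of 4 fibroblast markers COL1A1 alone was above 0.1 FPKM, with DCN at or near 0, and their sum was 4.60 to 5.86 FPKM in WT, 12.6 to 15.1 in the libraries labelled KO and 11.1 to 12.3 in OE.

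The libraries WT 1 and KO 3 stood apart in how their values depended on GC content. Over the 12789 genes with a mean of at least 1 FPKM, the log2 deviation of a gene from its mean over the libraries fell by 0.387 per 10 percentage points of GC in WT 1 and rose by 0.239 in KO 3. In the other 7 libraries the slope lay between -0.0755 and 0.115. Members moved with it. The median deviation of the 18 GC-rich members was -0.65 in WT 1 and 0.40 in KO 3, and that of the 70 GC-poor members was 0.33 and -0.38. Counts below are therefore also given after a correction for GC content and without these libraries. For fits that leave out libraries the share over all genes tested was not counted, so those counts cannot be set against a general rate.

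**Figure D1:**
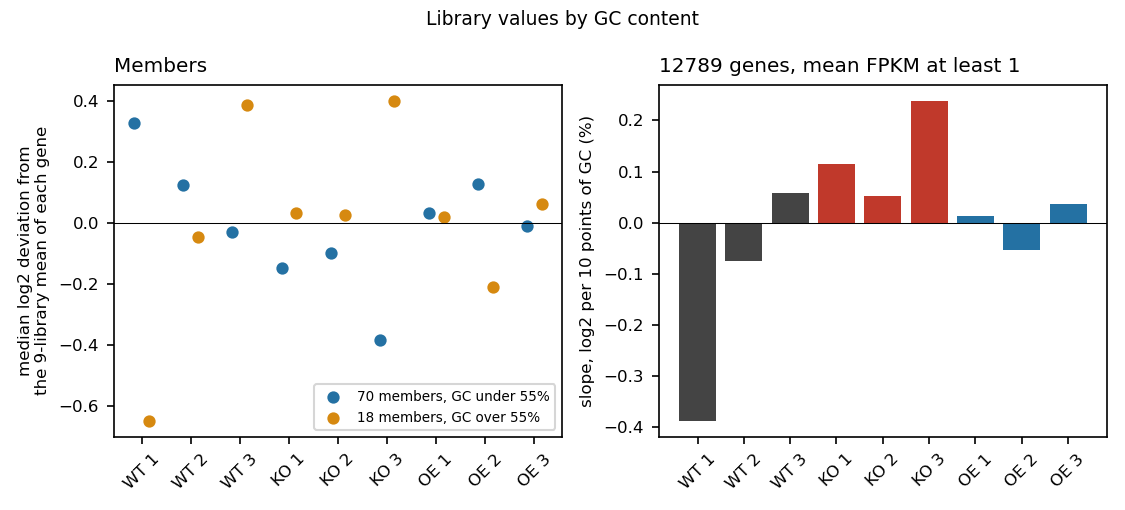
Left, median log2 deviation of members from the mean of each gene over all libraries, for 70 members under 55% GC and 18 above it, by library. Right, slope of the same deviation against GC content over 12789 genes, in log2 per 10 points of GC. The members spread widest in WT 1 and KO 3, whose slopes are -0.387 and 0.239.

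Expression was low for most members. The median member had a mean of 2.38 FPKM, 60 of the 88 were under 3 FPKM, and 10 were above 10 FPKM. Members with the KRAB pattern had a median of 1.93 FPKM and none exceeded 9.70, whereas the 26 members without it had a median of 6.09 FPKM. Of the 88 members, 76 had a mean of at least 1 FPKM in each group. The other 12 passed through the remaining groups: 11 were under 1 FPKM in the libraries labelled KO, 5 in OE and 2 in WT. The genes just above the threshold were ZNF224, ZNF460 and ZNF611, at 1.01, 1.08 and 1.09 FPKM. Those just below it were ZNF30, ZNF548 and ZNF708, at 0.997, 0.978 and 0.970 FPKM.

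ZNF146 (ENSG00000167635, chromosome 19 from 36214602 to 36238774), which encodes a protein of fingers only, had the highest mean, 33.9 FPKM. Its FPKM was 50.8, 41.03 and 36.4 in WT, 26.6, 28.6 and 23.7 in the libraries labelled KO, and 31.6, 32.8 and 33.4 in OE. Every library labelled KO was below every WT and every OE library, and OE was below WT throughout. In KO against WT the log2 fold change was -0.69 (standard error, SE, 0.13 and adjusted p = 0.0058 by limma). In OE against WT it was -0.38 (adjusted p = 0.053). It passed after the GC correction (-0.24, adjusted p = 0.021) and without WT 3 (-0.49, adjusted p = 0.021) or KO 3 (-0.38, adjusted p = 0.050). Exons of ZNF146 overlap ZNF565 on the opposite strand. The next members by level were ZNF581 with a mean of 20.5 FPKM and ZNF121 with 15.2 FPKM, for which no comparison passed.

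KO against WT asks which genes changed when A20 was removed. Of the 88 members 21 were lower in the libraries labelled KO and 4 were higher at an adjusted p under 0.05 (limma on log2(FPKM + 0.1), Benjamini-Hochberg over 21636 genes). Of all genes tested, 11% were lower and 11.3% higher. The median log2 fold change was -0.24 over the members and -0.01 over all genes tested, and 68 members were below 0. With the threshold of the Methods added, an absolute log2 fold change above 1, 5 members were lower and 1 higher, against 6.99% of all genes in either direction. Without WT 1, 3 members passed both thresholds, without WT 3, 11, and without KO 2 or KO 3, 9 or 4. The rises were 6 without WT 3, 2 without WT 1 or OE 1, and 1 without WT 2, KO 1 or KO 3. Among the 76 members with a mean of at least 1 FPKM in every group 16 were lower and 3 higher, with a median of -0.23. The other 12 members, 5 lower and 1 higher, reached the mean of 1 FPKM through the groups where they were higher. ZNF607, ZNF100, ZNF738 and ZNF552 were among these falls, and ZNF554 was the rise. Their calls are tied in part to the choice of members. TNFAIP3 mRNA itself was not lower in these libraries.

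The largest fall was that of ZNF551 (ENSG00000204519, chromosome 19 from 57681969 to 57717301, cluster 10), a KRAB zinc finger gene. Its FPKM was 3.58, 3.22 and 2.89 in WT, 1.04, 1.65 and 1.19 in the libraries labelled KO, and 1.93, 2.302 and 1.75 in OE. All 3 groups were separate, with OE between the others. The log2 change was -1.27 in KO against WT (SE 0.19, adjusted p = 0.0019), 0.60 in OE against KO (adjusted p = 0.079), and -0.67 in OE against WT (adjusted p = 0.022). The last call was lost without WT 1 (-0.60, adjusted p = 0.063), WT 2 (-0.67, adjusted p = 0.063), OE 1 (-0.66, adjusted p = 0.073) or OE 3 (-0.59, adjusted p = 0.079), and the rise in OE against KO passed without KO 2 (0.78, adjusted p = 0.043).

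ZNF134 (ENSG00000213762, chromosome 19 from 57614233 to 57624723) is a neighbour of ZNF551 in cluster 10. It was at 2.603, 2.39 and 2.27 FPKM in WT, 1.19, 1.41 and 0.9102 in the libraries labelled KO, and 1.498, 1.73 and 1.52 in OE. The order of the groups was that of ZNF551. The fall in KO against WT was -1.01 (SE 0.17, adjusted p = 0.0034) and that in OE against WT was -0.58 (adjusted p = 0.026). The latter was lost without WT 1, WT 2, OE 1 or OE 3, with adjusted p-values from 0.064 to 0.088.

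ZNF607 (ENSG00000198182, chromosome 19 from 37696363 to 37719790, cluster 6), with 18 finger matches, stayed low in OE. Its FPKM was 1.92, 1.96 and 1.72 in WT, 0.773, 0.729 and 0.851 in the libraries labelled KO, and 0.893, 0.893 and 1.07 in OE. The WT libraries lay above all others. On the log2 scale the change was -1.15 in KO against WT (SE 0.15, adjusted p = 0.0011), 0.25 in OE against KO (adjusted p = 0.34) and -0.91 in OE against WT (adjusted p = 0.0017).

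ZNF100 (ENSG00000197020, chromosome 19 from 21722766 to 21767628, cluster 4) has the lowest GC content of the members. Its FPKM was 3.05, 1.79 and 1.92 in WT, 0.958, 1.095 and 0.746 in the libraries labelled KO, and 0.899, 0.987 and 1.000 in OE. WT 1 was the highest library, and the other WT libraries were still above all of KO and OE. The log2 change was -1.16 in KO against WT (SE 0.22, adjusted p = 0.0062) and -1.11 in OE against WT (adjusted p = 0.0049). In OE against KO it was 0.05 (adjusted p = 0.91).

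ZNF738 (ENSG00000172687, chromosome 19 from 21358930 to 21379302), also in cluster 4, had 2.53, 2.02 and 1.403 FPKM in WT, 0.822, 0.927 and 0.582 in the libraries labelled KO, and 0.811, 0.485 and 0.847 in OE. WT was above both other groups in every library. On the log2 scale the change was -1.23 in KO against WT (SE 0.28, adjusted p = 0.013) and -1.35 in OE against WT (adjusted p = 0.0058). Without WT 1 and KO 3 the first was -0.88 (adjusted p = 0.099). The finger pattern had no match in the protein predicted for ZNF738.

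The other 16 members lower in KO against WT had log2 fold changes from -0.98 (ZNF430) to -0.42 (ZNF526). ZNF544 fell by 0.91, ZNF114 by 0.88, ZNF480 by 0.81 and ZNF584, the most expressed member of cluster 10, by 0.59. Members with the KRAB pattern fell in 16 of 62 cases and the others in 5 of 26, but after the GC correction in 16 of 62 and 10 of 26. Among members under 55% GC the deposited values gave 16 of 61 and 4 of 9. Among the 70 GC-poor members 20 fell and 2 rose, and among the 18 GC-rich members 1 fell and 2 rose.

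**Figure D2:**
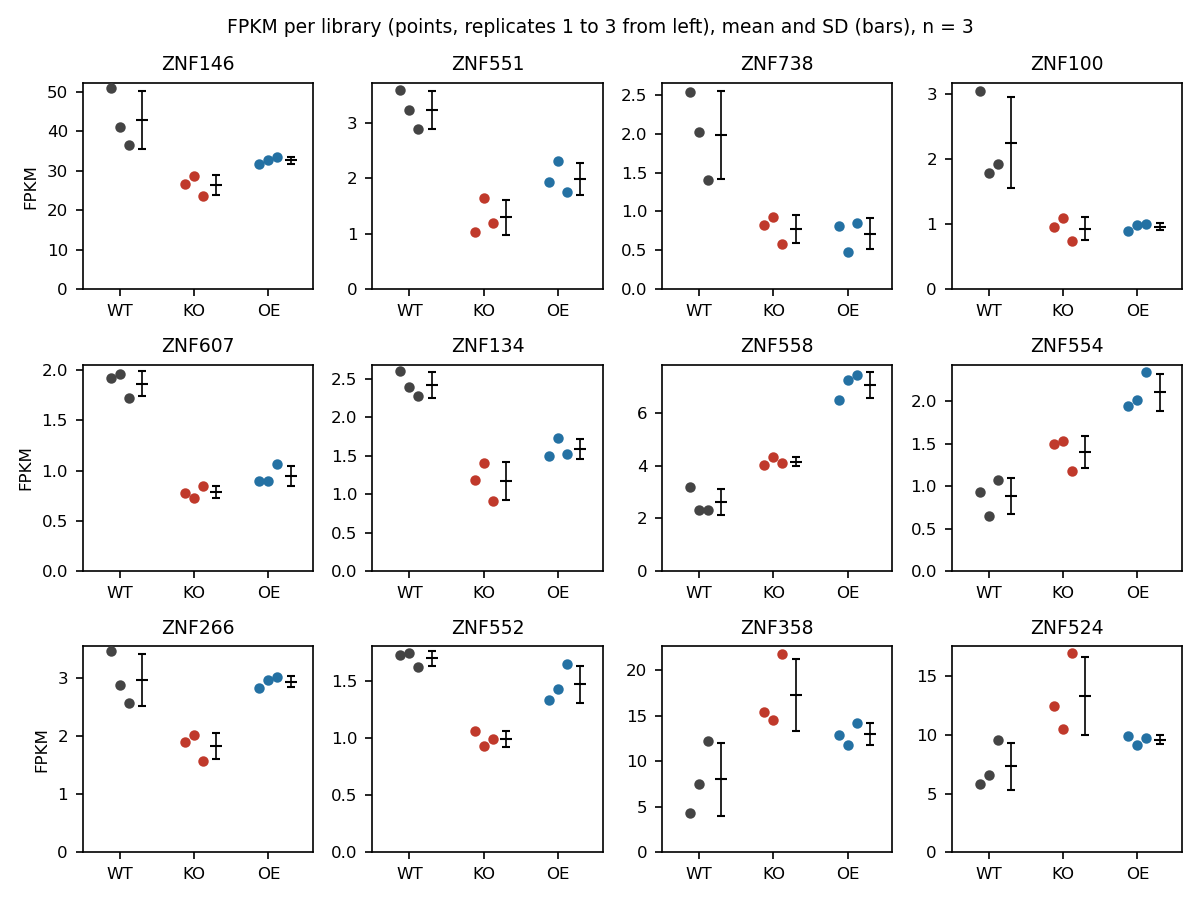
FPKM in each library for 12 named members (points, replicates 1 to 3 from the left) with the mean and SD of each group (bars, n = 3). ZNF551 and ZNF134 lie between the groups in OE, ZNF100, ZNF738 and ZNF607 stay near the libraries labelled KO, and ZNF558 has means of 2.61, 4.16 and 7.08 FPKM in WT, KO and OE.

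Of the 4 rises in KO against WT, that of ZNF558 had the smallest adjusted p. ZNF558 (ENSG00000167785, chromosome 19 from 8806170 to 8832328, cluster 2) encodes a KRAB zinc finger protein with 9 finger matches. Its FPKM was 3.18, 2.32 and 2.33 in WT, 4.03, 4.35 and 4.105 in the libraries labelled KO, and 6.51, 7.26 and 7.47 in OE. Each group was wholly above the one before. The log2 change was 0.67 in KO against WT (SE 0.14, adjusted p = 0.0087), 0.75 in OE against KO (adjusted p = 0.014) and 1.42 in OE against WT (adjusted p = 1.1e-04). The rise in OE against KO was not called without KO 1 (0.73, adjusted p = 0.061), OE 2 (0.73, adjusted p = 0.065) or OE 3 (0.71, adjusted p = 0.052).

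ZNF554 (ENSG00000172006, chromosome 19 from 2819874 to 2835773, cluster 1) had the same order of groups at a lower level. It had 0.929, 0.649 and 1.08 FPKM in WT, 1.49, 1.53 and 1.18 in the libraries labelled KO, and 1.94, 2.02 and 2.35 in OE. The rise in OE against WT was 1.18 (SE 0.20, adjusted p = 0.0019). In KO against WT it was 0.63 (adjusted p = 0.049), a call that did not hold in 8 of the 9 leave-one-out fits, every one but that without WT 3, with adjusted p-values up to 0.14.

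The other rises in KO were those of GC-rich members. ZNF358 (69.1% GC, in no cluster) had 4.303, 7.52 and 12.2 FPKM in WT, 15.4, 14.5 and 21.8 in the libraries labelled KO, and 12.9, 11.8 and 14.2 in OE. WT 1 was the lowest library and WT 3 the highest of WT, and these have the lowest and highest GC slope of the WT libraries. The log2 fold change in KO against WT was 1.20 (SE 0.32, adjusted p = 0.027), and 0.61 (adjusted p = 0.016) after the GC correction. It was not called without WT 2 (1.21, adjusted p = 0.071), KO 1 (1.27, adjusted p = 0.064), KO 3 (1.02, adjusted p = 0.098) or OE 1 (1.20, adjusted p = 0.050). Without WT 1 and KO 3 together it was 0.64 (adjusted p = 0.097). In OE against WT the value of 0.81 (adjusted p = 0.087) passed without WT 3 (1.17, adjusted p = 0.011).

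ZNF524 (64.9% GC, cluster 9) had 5.86, 6.56 and 9.59 FPKM in WT, 12.5, 10.5 and 17.00 in the libraries labelled KO, and 9.91, 9.19 and 9.76 in OE. WT 3 and KO 3 were the highest of their groups, which did not overlap. The log2 fold change in KO against WT was 0.86 (SE 0.21, adjusted p = 0.018), and 0.45 (adjusted p = 0.021) after the GC correction. The call was lost without WT 1 (0.71), WT 2 (0.79), KO 1 (0.89) or KO 3 (0.67), with adjusted p-values from 0.051 to 0.066. Without WT 3, OE against WT passed too (0.62, adjusted p = 0.039). Exons of ZNF524 overlap FIZ1 on the opposite strand.

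Across the 88 members the log2 fold change in KO against WT followed GC content with a Pearson correlation of 0.55, and in OE against KO with one of -0.50. These are descriptions over genes that share the same libraries. The correlation in KO against WT was 0.40 over the 12789 genes with a mean of at least 1 FPKM, and the difference between these correlations was not tested. For other expressed protein-coding genes the median log2 fold change in KO against WT went from -0.28 for 1670 genes at 30 to 40% GC to 0.38 for 1837 genes at 60 to 75% GC. The 10 members at 30 to 40% GC had a median of -0.74, and the 14 members at 60 to 75% had one of 0.28. After each library was corrected for GC content, the correlation over the members was 0.02 in KO against WT and -0.15 in OE against KO. The correction takes out the median deviation at each level of GC content, so a smaller correlation follows from it. What gave rise to the trend was not tested.

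**Figure D3:**
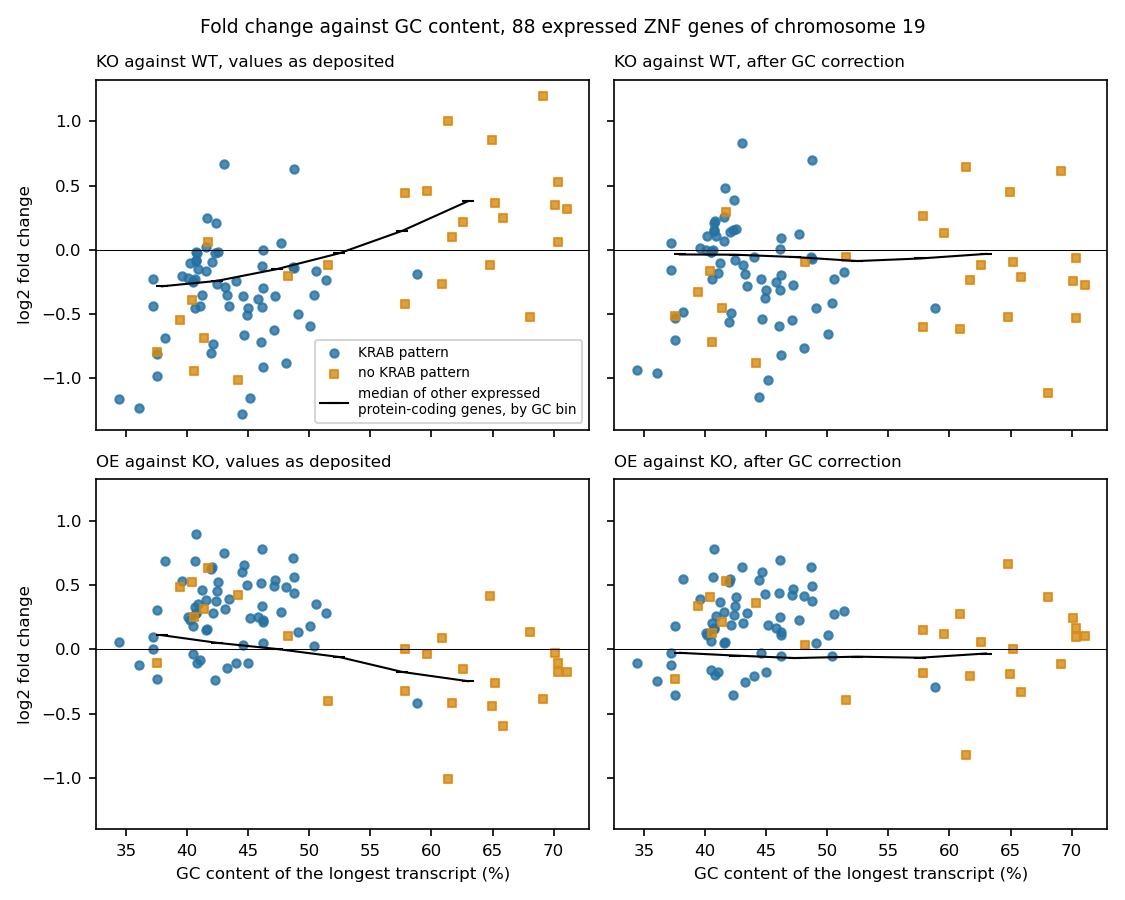
Log2 fold change of the 88 members against the GC content of the longest transcript in KO against WT (top) and OE against KO (bottom), as deposited (left) and after the GC correction (right). Circles have the KRAB pattern and squares do not. The line joins the medians of other expressed protein-coding genes by GC bin. These run from -0.28 to 0.38 at the top left and stay near 0 on the right, where the correction puts them.

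After the GC correction 26 members were lower and 6 higher in KO against WT, where 13.6% and 12.6% of all genes tested were, and the median was -0.18. Of the 21 falls called in the deposited values 19 remained called, and all 4 rises did. The members with over 55% GC moved further than the others: their median went from 0.28 to -0.22, and 6 of the 18 were lower in place of 1. ZNF296, at 5.29, 7.85 and 12.02 FPKM in WT and 5.33, 5.29 and 5.83 in the libraries labelled KO, went from -0.53 (adjusted p = 0.19) to -1.11 (adjusted p = 5.4e-04). ZNF296 falls outside the rule for named genes and was picked after its values were seen. Without WT 1 and KO 3, and with no GC correction, 13 members were lower and 1, ZNF558, was higher.

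The fall of zinc finger genes in KO against WT was not limited to the members. Among 154 ZNF genes of other chromosomes with a mean of at least 1 FPKM, 32 were lower and 8 higher (20.8% lower, against 23.9% of the members). Of the 62 ZNF genes of chromosome 19 between 0.1 and 1 FPKM, 15 were lower and 2 higher. The other 704 expressed protein-coding genes of the chromosome, whose median GC content is 60.3%, went the opposite way in the deposited values, with 197 higher and 42 lower. After the GC correction 165 of these were higher and 168 lower. The difference between the lists was not tested.

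By position, falls in KO against WT made up the largest shares of members in clusters 4, 6 and 10. In cluster 4, 5 of 7 members were lower, ZNF100, ZNF738, ZNF430, ZNF714 and ZNF101, with a cluster median of -0.79. On average ZNF100 and ZNF738 were under 1 FPKM in the libraries labelled KO and in OE. They reached the member threshold through WT, so the count is a description. ZNF431 (-0.43, adjusted p = 0.12) and ZNF14 (-0.24, adjusted p = 0.37) did not pass. In cluster 6, 2 of 3 members were lower, ZNF146 and ZNF607. In cluster 10, 7 of 19 were lower and none higher, with a median of -0.38: ZNF551, ZNF134, ZNF544, ZNF776, ZNF552, ZNF584 and ZNF416. In cluster 8 ZNF480 alone was lower among 15, and the median was -0.20. Cluster 9 had a median of 0.31, with ZNF524 higher. Clusters 1, 2, 3 and 7 had 1 fall each, and cluster 5 none. The last 2 falls were in ZNF114 and ZNF526, which lie in no cluster.

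After the GC correction the cluster medians were -0.51 in cluster 4, with 4 of 7 lower, -0.32 in cluster 10, with 7 of 19 lower and ZNF264 higher, 0.02 in cluster 8 and -0.21 in cluster 9. The medians of clusters 2 to 7 and 10 were below 0 under both scalings, with that of cluster 6 at -0.69 and -0.48, whereas those of clusters 1, 8 and 9 changed sign. Members of a cluster are close relatives, between which the counting could have split or shared reads, so they are not independent measurements.

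**Figure D4:**
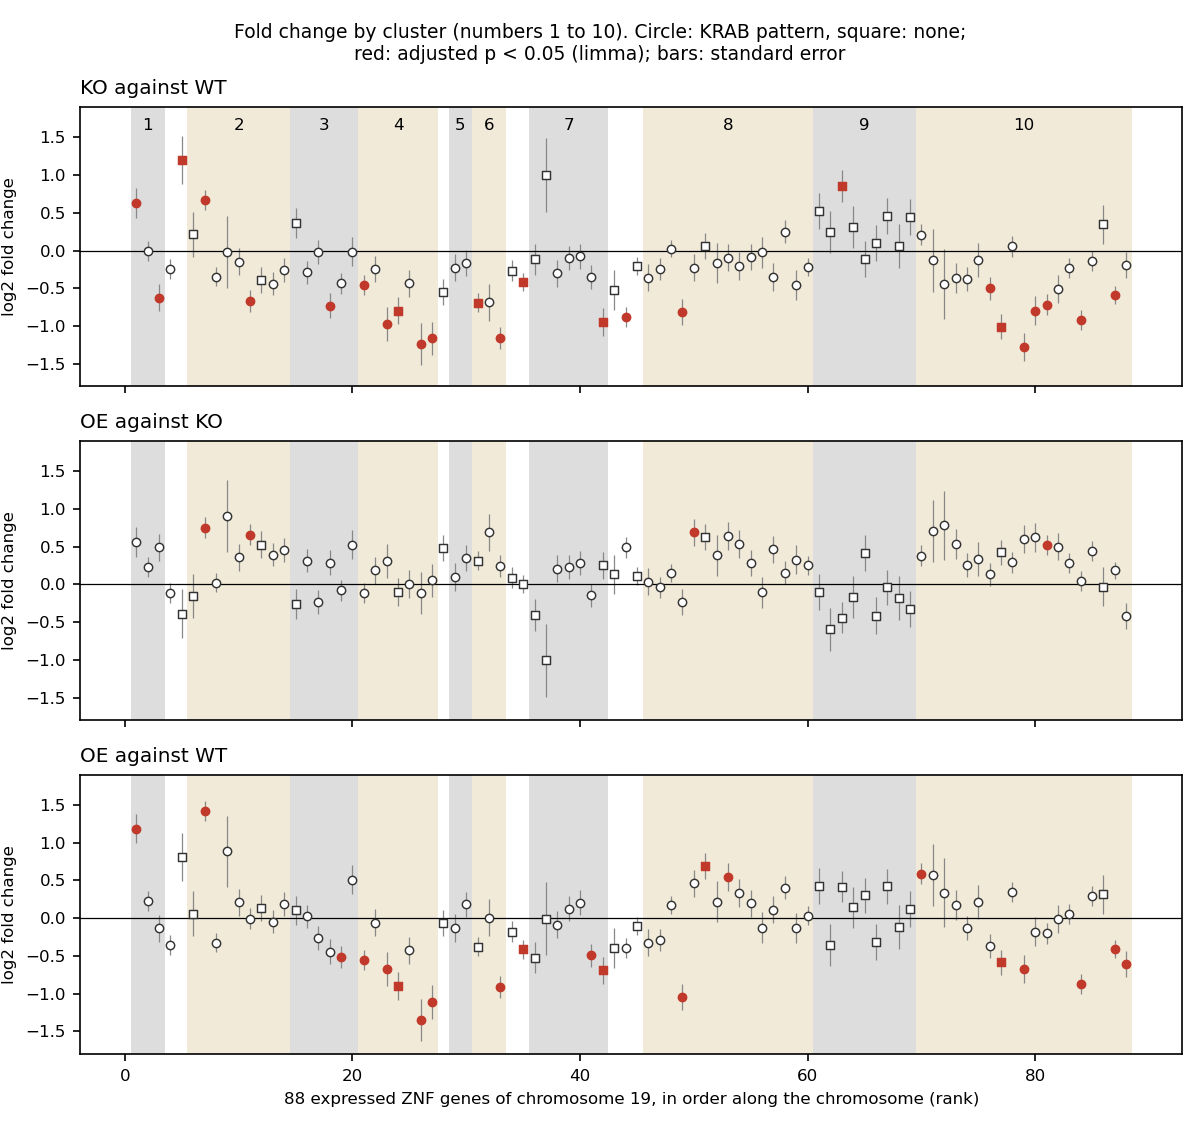
Log2 fold change of the 88 members with the standard error, in order along chromosome 19, for the 3 comparisons. Shaded bands number the 10 clusters, circles have the KRAB pattern and squares do not, and red marks an adjusted p under 0.05. Falls stand together in clusters 4 and 10 in KO against WT, and cluster 4 stays low in OE against WT, with a median of -0.67.

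OE against KO asks what changed when A20 was expressed in the knockout cells. TNFAIP3 mRNA had a mean of 60.6 FPKM in OE and 0.802 in WT (log2 fold change 6.07, adjusted p = 2.0e-06 by limma), so OE is not a return to the WT level. In OE against KO 4 members rose and none fell, against 4.43% of all genes tested that rose and 4.54% that fell, and no member passed the fold threshold of 1, against 2.39%. Among the 76 members with a mean of at least 1 FPKM in every group 3 rose and none fell. The median over the members was 0.25, against 0.01 over all genes tested, and 25 of the 88 were below 0. It was 0.30 over the GC-poor members and -0.18 over the GC-rich ones, and 0.20 and 0.08 after the GC correction. After the correction 11 members rose and none fell, against 7.21% and 8.52% of all genes. Without WT 1 and KO 3, 7 rose and 1 (ZNF428) fell. Without WT 1 alone 10 rose and 2 fell, whereas without KO 1 or OE 2 none rose, and without WT 2, KO 3, OE 1 or OE 3 only 1 rose.

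The 4 rises were those of ZNF558 (0.75), ZNF808, ZNF266 and ZNF552, all with the KRAB pattern. ZNF808, which keeps liver genes silent in the developing pancreas, had 1.34, 1.16 and 1.15 FPKM in WT, 1.07, 1.08 and 0.925 in the libraries labelled KO, and 1.84, 2.04 and 1.32 in OE. The difference came to 0.69 (SE 0.18, adjusted p = 0.048), a call lost in 7 of the 9 fits without a library, all but those without WT 1 or OE 3, with adjusted p-values up to 0.17. Exons of ZNF808 overlap ZNF701 on the same strand.

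ZNF266 (ENSG00000174652, chromosome 19 from 9412461 to 9435578, cluster 2) fell in KO and rose again in OE. Its FPKM was 3.47, 2.88 and 2.58 in WT, 1.91, 2.02 and 1.58 in the libraries labelled KO, and 2.83, 2.98 and 3.02 in OE. The libraries labelled KO were below all others, and WT and OE overlapped. On the log2 scale the change was -0.67 in KO against WT (SE 0.14, adjusted p = 0.011), 0.66 in OE against KO (adjusted p = 0.027) and -0.01 in OE against WT (adjusted p = 0.99). The rise was lost in 6 of the 9 fits without a library (KO 1, KO 3, WT 2 and each OE library), where it ran from 0.56 to 0.69 with adjusted p-values up to 0.10.

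ZNF552 (ENSG00000178935, chromosome 19 from 57803841 to 57814913, cluster 10) had 1.73, 1.74 and 1.62 FPKM in WT, 1.06, 0.925 and 0.9904 in the libraries labelled KO, and 1.33, 1.43 and 1.65 in OE. The libraries labelled KO were again the lowest, and OE overlapped WT. The fall was -0.72 (SE 0.14, adjusted p = 0.0064) and the rise 0.52 (adjusted p = 0.049). The rise was lost without any one library except WT 1, with adjusted p-values up to 0.13. Exons of ZNF552 overlap ZNF586 on the opposite strand. KO against WT and OE against KO share the libraries labelled KO, so opposite signs in them are not independent.

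OE against WT, a comparison that shares WT with the first, gave 16 members lower and 5 higher. The shares of all genes tested were 15.4% and 15.7%, and the members' shares were 18.2% and 5.68%. The median was -0.03 over the members and 0.03 over all genes tested. The share of reads from mitochondrial genes also separated these groups, at 7.52 to 10.1% in WT and 11.97 to 13.95% in OE, with 9.18 to 11.9% in the libraries labelled KO, and its part in the result was not tested. With the fold threshold, 3 members were lower (ZNF738, ZNF100 and ZNF480) and 2 higher (ZNF558 and ZNF554), against 11.9% of all genes. ZNF738, ZNF100 and ZNF554 reached the mean of 1 FPKM through the groups where they were higher, so their calls are tied in part to the choice of members. Among the 76 members with a mean of at least 1 FPKM in every group 12 were lower and 4 higher. Past the fold threshold 1 of these was lower and 1 higher. After the GC correction 22 were lower and 10 higher (19.1% and 18% of all genes), with a median of 0.01. Without WT 1 and KO 3, 16 were lower and 12 higher, with no share of all genes counted for that fit. The count of falls dropped to 9 without WT 2, and to 8 without OE 1 or OE 3. That of rises was 8 without WT 1 and 3 without OE 1, and past both thresholds there were 3 members without WT 1.

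ZNF480 (ENSG00000198464, chromosome 19 from 52297177 to 52325922) was the only member of cluster 8 called lower in OE against WT, though not the only gene of the cluster. Its FPKM was 5.94, 4.89 and 3.58 in WT, 2.46, 2.63 and 2.84 in the libraries labelled KO, and 2.16, 2.35 and 2.21 in OE. WT was above both other groups throughout. The log2 change was -1.04 in OE against WT (SE 0.17, adjusted p = 0.0019) and -0.23 in OE against KO (adjusted p = 0.45). Its neighbours in the cluster ZNF83 and ZNF600 rose in OE against WT. ZNF83 went from 5.11, 3.704 and 3.099 FPKM in WT to 6.55, 6.37 and 6.09 in OE (0.69, adjusted p = 0.014; 0.67, adjusted p = 0.053 without OE 1). ZNF600 went from 2.12, 1.58 and 1.46 to 2.31, 2.43 and 2.87 (0.54, adjusted p = 0.049), a call lost in 7 of the 9 fits without a library, all but those without WT 1 or KO 3, with adjusted p-values up to 0.15.

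ZNF264 (ENSG00000083844, chromosome 19 from 57191500 to 57222846) was the only cluster 10 member to rise in OE against WT, from 2.35, 2.58 and 2.502 FPKM to 3.75, 4.07 and 3.52. The difference came to 0.59 (SE 0.14, adjusted p = 0.010), and the libraries labelled KO lay at 2.72, 3.47 and 2.53. In the same comparison 5 members of cluster 10 were lower: ZNF544 (-0.87), ZNF551, ZNF324 (-0.61), ZNF134 and ZNF584 (-0.41). The fall of ZNF584 was lost without WT 2, OE 1, OE 2 or OE 3, with adjusted p-values from 0.050 to 0.093.

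Cluster 4 was the cluster with the largest share of falls in OE against WT, 5 of 7 members, with a median of -0.67 as deposited and -0.52 after the GC correction. ZNF100 and ZNF738, among these falls, reached the member threshold through WT. In OE against KO the median of cluster 4 was 0.01, and 3 of the 7 members were below 0 (5 of the 7, with a median of -0.12, after the GC correction). ZNF714 (ENSG00000160352, chromosome 19 from 21082159 to 21125270), its most expressed member, had 3.57, 3.24 and 2.39 FPKM in WT, 1.603, 2.12 and 1.45 in the libraries labelled KO, and 1.51, 1.66 and 1.57 in OE. Its log2 fold change was -0.79 in KO against WT (adjusted p = 0.015) and -0.90 in OE against WT (SE 0.18, adjusted p = 0.0058). The first was lost without WT 2, KO 1 or KO 3 (adjusted p from 0.053 to 0.058), and without WT 1 and KO 3 together (-0.57, adjusted p = 0.095).

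The largest fall in cluster 4 was in a gene under the member threshold. ZNF91, a KRAB zinc finger gene whose product represses SVA retrotransposons, was named for its known role; it had 249, 232 and 161 reads in WT, 0 in each library labelled KO, and 6, 1 and 11 in OE. With the libraries labelled KO set at a floor of 3 reads per library, WT was at least 71.4-fold higher. The adjusted p by limma was 4.3e-04, and the call held after the GC correction (adjusted p = 3.2e-04). Of the 14 ZNF genes of cluster 4 that were tested, members or not, 9 were lower in KO against WT and 10 in OE against WT. The shares of all genes tested that were lower were 11% and 15.4%. None of the 14 was called in OE against KO, where 4.43% of all genes rose and 4.54% fell. Genes such as ZNF91 reached the mean of 0.1 FPKM needed for testing only through WT, so these counts are a description. The other genes picked for a known role that are not members, ZNF93, ZNF331, ZNF382 and ZNF420, had means under 0.1 FPKM.

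ZNF274, ZNF304 and ZNF473, the other members picked for a known role, did not pass in the deposited values. ZNF274, which brings SETDB1 to zinc finger genes themselves, had 1.63, 1.46 and 1.64 FPKM in WT, 1.22, 1.36 and 1.400 in the libraries labelled KO, and 1.51, 1.78 and 1.62 in OE. Its largest log2 fold change was 0.28 in OE against KO (adjusted p = 0.22). ZNF304, a KRAB zinc finger gene, was at -0.38 in KO against WT (adjusted p = 0.12), and ZNF473, a factor in the processing of histone mRNA, at -0.21 (adjusted p = 0.26). Neither passed in the other comparisons, and ZNF304 passed in KO against WT without WT 3 (-0.52, adjusted p = 0.041).

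The most expressed members of the remaining clusters did not pass in the deposited values. These were ZNF57 in cluster 1, ZNF791 in cluster 3, ZNF302 in cluster 5 and ZNF428 in cluster 7. ZNF428 had 2.904, 9.88 and 14.8 FPKM in WT, 14.9, 12.003 and 19.5 in the libraries labelled KO, and 7.52, 7.06 and 7.92 in OE. Without WT 1 it was lower in OE against KO (-1.01, adjusted p = 0.018), and without WT 3 it was higher in KO against WT (1.48, adjusted p = 0.046). ZNF428 shares exonic bases with SRRM5 on the opposite strand. ZNF791 rose in OE against WT after the GC correction (0.57, adjusted p = 0.0066) and without WT 1 (0.72, adjusted p = 0.0078), and ZNF121 rose in OE against KO after the correction (0.40, adjusted p = 0.035) and without WT 1 (0.53, adjusted p = 0.032).

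A list of 28 genes held partners of KRAB zinc finger proteins, other writers and readers of repressive marks, and ZFP57 and ZNF445, KRAB zinc finger genes that act at imprinted regions. Of these 27 were tested, all but ZFP57. In OE against WT 18 of the 27 fell and 1 rose, where 15.4% and 15.7% of all genes tested did, with a median log2 fold change of -0.54, against 0.03 over all genes tested. TRIM28, the co-repressor that KRAB boxes bind, had 277, 305 and 407 FPKM in WT, 220, 195 and 239 in the libraries labelled KO, and 162, 143 and 178 in OE. Every OE library was below every other library. The difference came to -1.02 (SE 0.16, adjusted p = 0.0016) in OE against WT and -0.58 (adjusted p = 0.032) in KO against WT. SETDB1, the methyltransferase it recruits, was at 3.86, 4.41 and 4.59 FPKM in WT and 5.64, 5.97 and 5.31 in OE, and did not pass (0.39, adjusted p = 0.050).

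Other falls in OE against WT concerned the maintenance of DNA methylation and the readers and writers of H3K9 methylation. DNMT1, which copies DNA methylation after replication, had 34.02, 43.3 and 45.5 FPKM in WT and 15.2, 15.8 and 16.4 in OE (-1.36, adjusted p = 6.5e-05). UHRF1, which brings DNMT1 to replicated DNA, had 42.00, 53.2 and 54.01 FPKM in WT and 20.02, 19.9 and 19.3 in OE (-1.32, adjusted p = 6.2e-05). The methyltransferases SUV39H1 (-1.16) and SUV39H2 (-0.83), the HP1 proteins CBX5 (-0.86), CBX1 (-0.71) and CBX3 (-0.67), and the HUSH subunits MPHOSPH8 (-0.66) and PPHLN1 (-0.56) fell as well. So did CHD4 (-0.85), RBBP4 (-0.78), RBBP7 (-0.65), EHMT2 (-0.54), DNMT3B (-0.51), MORC2 (-0.46), EHMT1 (-0.40) and HDAC2 (-0.33). CHD3, a remodeller of the NuRD complex, rose (0.61, adjusted p = 0.0066).

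In KO against WT 10 of the 27 fell and 2 rose (CHD3 and DNMT3A), where 11% and 11.3% of all genes tested did, with a median of -0.34 and UHRF1 falling most (-1.03, adjusted p = 5.4e-04). After the GC correction the counts were again 10 and 2. SUV39H2, PPHLN1 and RBBP7 were no longer lower, whereas SUV39H1, EHMT1 and EHMT2 were, and the rise of DNMT3A (0.39, adjusted p = 0.072) was replaced by one of HDAC1 (0.29, adjusted p = 0.040). In OE against KO 6 fell and none rose (4.54% and 4.43% of all genes), and after the correction 12 fell and 2 rose (8.52% and 7.21%). In OE against WT the corrected counts were 17 lower and 2 higher (19.1% and 18%). The fall of HDAC2 was lost (-0.27, adjusted p = 0.11) and SETDB1 rose (0.38, adjusted p = 0.034).

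**Figure D5:**
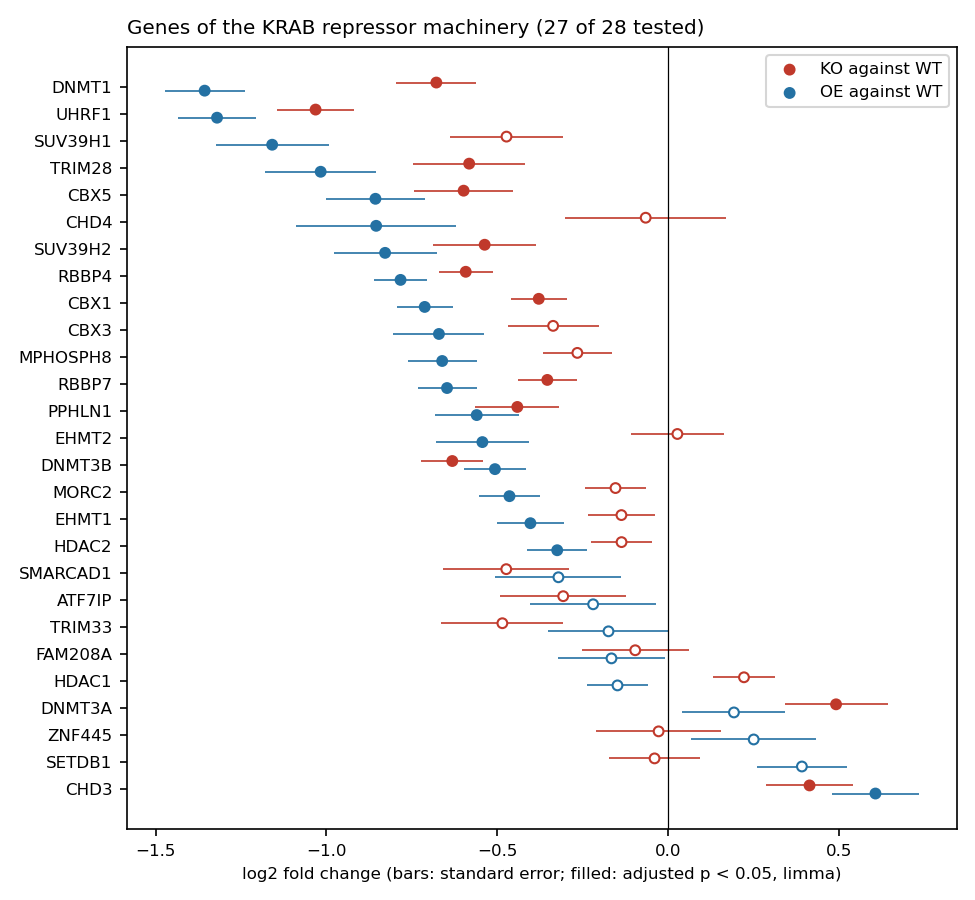
Log2 fold change (points) and standard error (bars) in KO against WT and in OE against WT for the 27 tested genes of the KRAB repressor list, sorted by OE against WT. Filled points have an adjusted p under 0.05 by limma. Of the 27, 18 are filled below 0 in OE against WT, from DNMT1 at -1.36 to HDAC2 at -0.33.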

How the data were processed

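RNA-seq of 9 HCT116 libraries (WT, KO, OE, 3 each, from the labels) was analysed. According to the Methods and the submitters' processing notes, the authors aligned poly(A)-selected RNA with HISAT2 2.0.5, counted reads with featureCounts 1.5.0-p3, and deposited FPKM per gene. Strand and genome build are not given in the sources used here, and the coordinates equal those of GENCODE 29 on GRCh38. Because FPKM are not counts, log2(FPKM + 0.1) was fitted with limma 3.58.1 (R 4.3.3, variance trend, group as the only term) over 21636 genes with a mean of at least 0.1 FPKM. Calls used a Benjamini-Hochberg adjusted p under 0.05, with or without an absolute log2 fold change above 1. On simulated reads limma recovered 190 of 200 genes changed by 1.5 on the log2 scale in KO against WT among 21636, with 9 false calls (191 and 9 with the GC correction). The simulation put in no GC slope, gave every gene the same dispersion and left the genes with the fewest reads unchanged. Its change was larger than that of any member in KO against WT. It therefore does not show how many smaller changes were missed, or what the correction does to a GC slope.

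FPKM times gene length gave whole reads for 100% of values within 1% of 1 read; these were used for depth and for limma-voom only. The floor of 3 reads covers counting error only. The GC correction subtracted, in each library, the median deviation of genes in 50 bins of GC content. KRAB boxes, fingers and linkers were found by text patterns in proteins translated from the longest GENCODE 29 coding transcripts.

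The members, gene lists and tests were chosen with earlier results of these data known. The named genes were the 3 most expressed members, up to 5 rises and 5 falls per comparison by fold among those called, the most expressed member of each cluster, the 3 genes on each side of the threshold, fixed genes of known role, TNFAIP3, TRIM28, SETDB1 and called genes of the repressor list. Other genes named in counts of 7 or fewer, or as examples of a range, were picked after their values were seen. The alternatives were a pseudocount of 1, no filter and a mean of at least 1 FPKM, median-of-ratios scaling, the replicate block, limma-voom, the GC correction with and without the block, and each library left out. Leaving out WT 1 and KO 3 together was added after seeing the data, as was the boundary of 55% GC.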

Additional observations from a re-analysis of the deposited data

How the results depend on the processing

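Among the named members no called value changed direction under the alternatives run. The other members were refitted in the same way. Apart from the GC correction, only their counts and medians are given here. The share over all genes tested was counted only for the reported fit and for the GC correction without the replicate block. Counts under the other settings therefore cannot be set against a general rate. The 93 differences of the named members passed or missed the threshold as reported in all 93 cases under median-of-ratios scaling, 90 with a pseudocount of 1, 88 with a mean of at least 1 FPKM or with no filter, 87 under limma-voom, 85 after the GC correction and 76 without WT 1 and KO 3. With a pseudocount of 1, 1 member passed the fold threshold in KO against WT and 1 in OE against WT, and the median in OE against KO was 0.16. With no filter 2 members rose in KO against WT and 2 in OE against KO. The GC correction left 3 members past the fold threshold in KO against WT, and gave 11 rises and a median of 0.17 in OE against KO and 10 rises in OE against WT. Without WT 1 and KO 3 there were 1 rise, 13 falls, 2 members past the fold threshold and a median of -0.15 in KO against WT, 7 rises and 1 fall in OE against KO, and 12 rises and 3 past the fold threshold in OE against WT. The small median in OE against WT was -0.03 in the reported fit and above 0 after the GC correction (0.01) and without WT 1 (0.03). The cause of these shifts was not tested.

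Leaving out each library in turn gave 1 to 6 rises, 15 to 22 falls, 3 to 11 members past the fold threshold and medians from -0.30 to -0.19 in KO against WT. In OE against KO it gave 0 to 10 rises, 0 to 2 falls and 0 to 1 past the fold threshold, with medians from 0.18 to 0.25. In OE against WT the ranges were 3 to 8 rises, 8 to 17 falls and 3 to 7 past the fold threshold, with medians from -0.07 to 0.03.

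The labels give the groups the same replicate numbers. Same-numbered libraries deviated together with correlations from -0.027 to 0.121 over 9 pairs, with a mean of 0.037. For libraries of different number the range was -0.131 to 0.0722 over 18 pairs, with a mean of -0.018. These ranges overlap, and whether same-numbered libraries share a batch was not tested. With the replicate block 8 members rose in OE against KO and 8 in OE against WT, and the counts of falls stayed at 21, 0 and 16 in the 3 comparisons. The replicate block with the GC correction gave 7 rises and 3 past the fold threshold in KO against WT, 14 rises, 1 fall and a median of 0.17 in OE against KO, and 14 rises in OE against WT. No share over all genes tested was counted for either fit with the block. With 3 libraries a group and members down to 26 reads, small differences in the lowest members could not be detected.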

Other observations

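Among the 62 ZNF genes of chromosome 19 with a mean between 0.1 and 1 FPKM, 8 passed both thresholds in KO against WT (adjusted p under 0.05 by limma and an absolute log2 fold change above 1), and all 8 were lower in the libraries labelled KO; of all genes tested 6.99% passed both thresholds in either direction. Since several of these genes reached a mean of 0.1 FPKM only through WT, the one direction is a description and supports nothing. Apart from ZNF91 they were ZNF615, ZNF550, ZNF724, ZNF649, ZNF155, ZNF675 and ZNF525, which were picked after their values were seen. All 8 predicted proteins carry the KRAB pattern.

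ZNF615, in cluster 8, had 46, 45 and 56 reads in WT, 0 in each library labelled KO, and 0, 0 and 4 in OE (adjusted p = 0.0025 in KO against WT and 0.0019 in OE against WT by limma). ZNF550, in cluster 10, had 53, 54 and 41 reads in WT, then 6, 4 and 3 with the label KO, and 6, 3 and 4 in OE. Both were thus close to the limit of 3 reads in KO and OE alike. ZNF724, beside ZNF91 in cluster 4, went from 77, 82 and 74 reads for WT to 26, 21 and 12 for the libraries labelled KO and 14, 20 and 14 in OE, a log2 fold change of -1.62 in KO against WT (adjusted p = 0.0026 by limma) and -1.79 in OE against WT (adjusted p = 8.5e-04).

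ZNF649, in cluster 8, was the only gene of these 62 to rise in OE against KO. Its reads numbered 111, 92 and 90 for WT, 36, 31 and 24 for the libraries labelled KO, and 58, 65 and 59 for OE, with log2 fold changes of -1.37 (adjusted p = 0.0018 by limma) and 0.83 (adjusted p = 0.034). Its 3 groups did not overlap, with OE between the others.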
